A study of Homo sapiens with 18 samples.

Results

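Levels of RNA were examined for 10 genes of the EGFR family in PC9, a human lung cancer cell line with an activating EGFR mutation. They are 3 receptors (EGFR, ERBB2 and ERBB3) and 7 ligands (HBEGF, AREG, EREG, TGFA, BTC, EPGN and NRG1), picked by gene symbol from a table of 30727 gene identifiers. All 10 were found, and 9 had enough reads to be tested against the other genes; EPGN did not. The receptors of this family sit in the cell membrane as tyrosine kinases and work in pairs. A ligand is made as a precursor in the membrane, is cut free by a protease and binds a receptor, which then pairs and switches on signalling through RAS and ERK and through PI3K. HBEGF, AREG, EREG, TGFA, BTC and EPGN bind EGFR, while NRG1 binds ERBB3 and its relative ERBB4. ERBB2 has no known ligand and ERBB3 has little kinase activity of its own, so that both depend on partners. Lung tumours of this kind grow on EGFR signalling, and erlotinib blocks the EGFR kinase.

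Sequencing covered 18 polyA-selected libraries in 6 groups of 3, all from PC9 in the same medium with serum. DTP_TSA and DTP are drug-tolerant persister cells that remained after 8 days in 1 µM erlotinib, the first of them given 50 nM trichostatin A (TSA), an inhibitor of histone deacetylases, for 5 hours. Erlotinib_24h had 1 µM erlotinib for 24 hours, carboplatin_72h had 50 µM of the DNA-crosslinking drug carboplatin for 72 hours, and parental_TSA had 50 nM TSA for 5 hours. The cells of parental_DMSO had only the solvent and serve as the reference of 4 comparisons, which therefore share its libraries. A persister population is what survived the drug, so that a different mix of cells and a different RNA level per cell cannot be told apart in these bulk samples. The labels do not say whether the libraries of a group, lettered a to c, came from separate cultures; the p-values measure the spread between these libraries, which may be technical. Their DTP entry also mentions cells sorted by ALDH activity, and DTP is taken here as unsorted.

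Reads counted to genes ran from 32139343 to 128293531 per library. DTP_TSA a is the shallowest and stood apart, with 99.9 reads of added spike-in RNA per 100 gene reads against 0.321 to 0.786 in the other 17 libraries; the changes in DTP_TSA against DTP are also given without it. Levels are in CPM (reads of a gene relative to all gene reads of its library, scaled by TMM), which are not divided by gene length, so that levels are compared between groups and not between genes. Parental_TSA a, with 0.786 spike-in reads per 100 gene reads, was less like its group than parental_TSA b and c were. Its highest Pearson correlation of log2 CPM with a library of its group was 0.985, against 0.993 in parental_TSA b and c. In DTP_TSA a that value was 0.939. Markers of epithelial cells summed to 3989 to 8468 CPM over all libraries, while the lung lineage markers NKX2-1, NAPSA, SFTPB and SFTPC together reached at most 1.93 CPM. The epithelial sum ran from 8280 to 8468 CPM in erlotinib_24h, from 5215 to 5310 in DTP and from 4966 to 5128 in parental_DMSO. Its 6 genes did not move together: against parental_DMSO 3 were higher and 3 lower in DTP, and 5 higher and 1 lower in erlotinib_24h. EPCAM averaged 313 CPM in erlotinib_24h, 381 in DTP and 696 in parental_DMSO. In the same order KRT19 averaged 1676, 803 and 510 CPM. The lung lineage sum ran from 0.961 to 1.44 CPM in erlotinib_24h, from 0.896 to 1.29 in DTP and from 0.106 to 0.303 in parental_DMSO. The other marker sums moved with the groups as well. The endothelial list, mostly PECAM1 and CDH5, ran from 113 to 118 CPM in erlotinib_24h, from 35.2 to 36.0 in DTP and from 17.5 to 18.4 in parental_DMSO. In the same order PECAM1 averaged 69.7, 2.82 and 9.27 CPM, and CDH5 43.3, 31.2 and 8.74 CPM. In DTP_TSA the endothelial list ran from 35.6 to 37.9 CPM, with another make-up. KDR averaged 10.3 CPM in DTP_TSA against 0.597 CPM in DTP, and VWF 3.67 against 0.799 CPM. CDH5 averaged 19.8 against 31.2 CPM and PECAM1 2.80 against 2.82 CPM. The fibroblast list, almost all of it COL1A1, ran from 29.4 to 32.2 CPM in DTP_TSA, from 24.3 to 28.3 in DTP and from 4.70 to 4.78 in parental_DMSO, while COL1A2 averaged 0.0202 CPM and DCN 0.311 CPM in DTP. CD68 made up most of the leukocyte list, which ran from 67.8 to 71.1 CPM in carboplatin_72h, from 23.4 to 28.9 in DTP_TSA, from 26.3 to 27.2 in DTP and from 29.9 to 32.6 in parental_DMSO, while PTPRC averaged 0.0331 CPM in DTP. What part these markers have in the results was not tested.

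Upstream sequences of the ligand genes AREG, EREG and HBEGF are shown because these ligands fell under erlotinib and rose when TSA was given to persister cells, and because their core elements differ. Each line gives the 250 bases before the transcription start on the gene's own strand, 5′ to 3′, from the RefSeq promoter table for GRCh38.p14. Capitals mark the cAMP response element TGACGTCA (CRE) or its part TGACG, the TATA box TATAAA and the GC box GGGCGG, each searched on both strands. AREG lies at chr4:74444886-74445135 (+), EREG at chr4:74364895-74365144 (+) and HBEGF at chr5:140346604-140346853 (−).
AREG: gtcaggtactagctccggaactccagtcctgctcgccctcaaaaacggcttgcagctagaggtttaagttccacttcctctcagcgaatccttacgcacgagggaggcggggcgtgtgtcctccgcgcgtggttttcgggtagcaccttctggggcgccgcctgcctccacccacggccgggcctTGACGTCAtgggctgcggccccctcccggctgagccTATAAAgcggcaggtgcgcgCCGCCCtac
EREG: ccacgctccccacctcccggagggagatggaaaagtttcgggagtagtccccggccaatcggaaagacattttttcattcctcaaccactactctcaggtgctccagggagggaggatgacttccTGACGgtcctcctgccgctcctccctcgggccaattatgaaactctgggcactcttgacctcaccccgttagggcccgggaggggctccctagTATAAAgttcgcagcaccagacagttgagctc
HBEGF: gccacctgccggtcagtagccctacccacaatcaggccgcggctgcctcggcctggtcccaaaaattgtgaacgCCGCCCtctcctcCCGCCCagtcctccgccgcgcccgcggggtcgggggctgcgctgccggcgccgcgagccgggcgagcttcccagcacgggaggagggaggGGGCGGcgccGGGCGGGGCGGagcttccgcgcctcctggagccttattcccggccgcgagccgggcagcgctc
AREG held a full CRE whose first base is at position -65 from the start, a TATA box at -29 and a GC box at -9. In EREG the part TGACG stood at -125 and a TATA box at -32. HBEGF had 5 GC boxes, at -176, -163, -73, -63 and -58, the last 2 of which share a base, with no match to the CRE, its part or the TATA box. None of the 3 held the AP-1 motif TGANTCA in the window. Of all 35116 promoters in the table, counted over windows of 300 bases that run 50 bases past the start, 1.85% held the full CRE, 24.6% the part TGACG (full sites included), 11.5% a TATA box, 45.0% a GC box and 7.71% the AP-1 motif. A match describes the letters and is not a measured binding site. The table matched 8 of the 10 genes; ERBB3 and NRG1 were not matched. EPGN, EREG, AREG and BTC follow each other as neighbouring protein-coding genes on chromosome 4, and their RNA is described for each gene on its own.

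**Figure D1:**
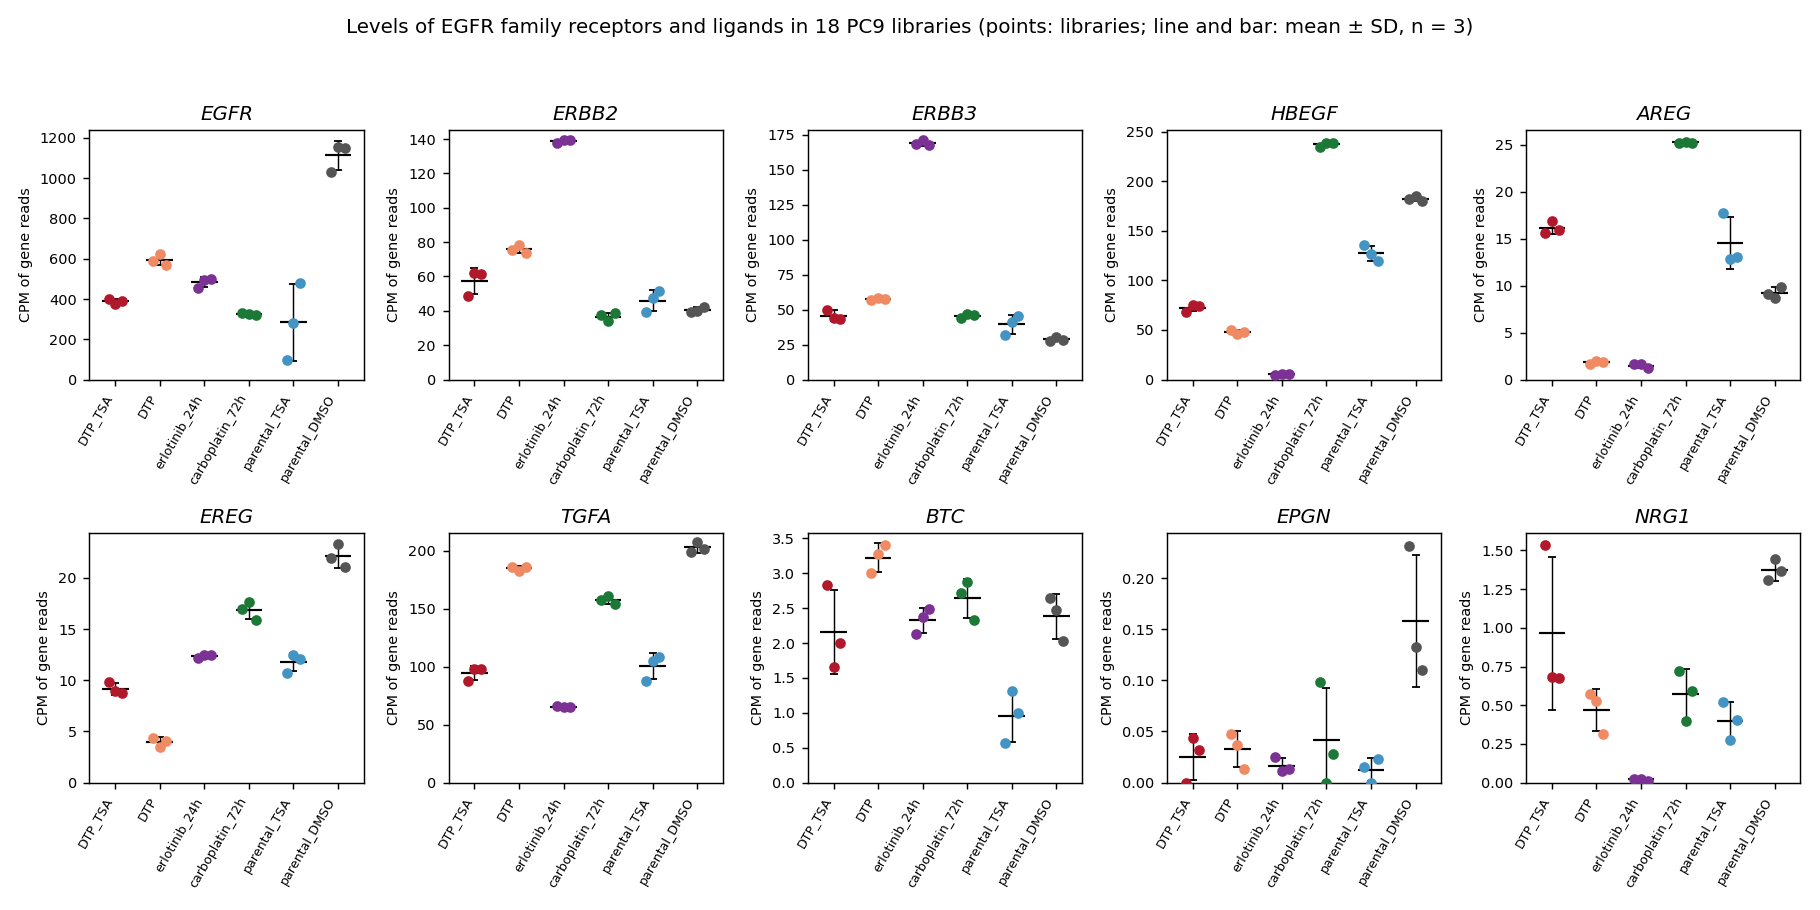
Level of each of the 10 genes (CPM of gene reads, linear axis from 0) in every library of the 6 groups. Points are libraries, and lines and bars give the mean ± SD of 3 libraries. EGFR is highest in parental_DMSO, ERBB2 and ERBB3 in erlotinib_24h, and HBEGF and AREG in carboplatin_72h.

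EGFR, the receptor that erlotinib inhibits, fell in each of the 4 groups set against parental_DMSO. Its level was 587, 623 and 571 CPM in DTP a, b and c, 455, 497 and 497 CPM in erlotinib_24h, and 1032, 1157 and 1149 CPM in parental_DMSO. These 3 groups did not overlap, and all erlotinib-treated libraries lay below all parental_DMSO ones. The log2 fold change was -0.91 ± 0.32 in DTP (± standard error; adjusted p = 0.0232) and -1.20 ± 0.32 in erlotinib_24h (adjusted p = 0.00340), from the quasi-likelihood test of edgeR. Persisters and 24-hour cells differed by 0.30 ± 0.32, which did not pass (adjusted p = 0.458). As single libraries were left out in turn, this difference passed for 1 of them (0.30, adjusted p = 0.0422). In carboplatin_72h EGFR stood at 331, 327 and 320.2 CPM, a change of -1.77 ± 0.33 (adjusted p = 2.02e-04).

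The libraries of parental_TSA disagreed on EGFR more than those of any other group, with 96.5, 281 and 478 CPM in a, b and c. All 3 were below parental_DMSO, and the change was -1.96 ± 0.33 (adjusted p = 8.00e-05), or -1.56 without parental_TSA a and -2.56 without parental_TSA c. The scatter entered the shared estimate of spread: the standard error of the DTP change was 0.32 with parental_TSA a and 0.12 without it. Other genes spread in parental_TSA as well, such as ADAM17 (61.2, 109 and 121 CPM) and CBL (47.2, 76.3 and 104 CPM). KRT19 ran the other way (952, 699 and 653 CPM), and TIMP3 was nearly even (393, 395 and 375 CPM). The call of EGFR in DTP was lost when parental_DMSO b, parental_DMSO c, DTP a or DTP c was left out (adjusted p between 0.0539 and 0.0639) and when libraries were scaled to the spike-ins (-0.81, adjusted p = 0.115). Reads of EGFR and of its overlapping antisense gene EGFR-AS1 cannot be told apart unless counting used strand, which is not given in the sources used here.

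ERBB2 and ERBB3, the partner receptors, went the other way from EGFR under erlotinib, and more so at 24 hours than at 8 days. ERBB2 had 75.7, 78.4 and 73.8 CPM in DTP, 138, 139 and 139 CPM in erlotinib_24h and 39.2, 39.8 and 42.2 CPM in parental_DMSO. The 24-hour libraries were the highest of all 18, DTP came next, and no library overlapped between the groups. ERBB2 rose by 0.91 ± 0.10 in DTP (adjusted p = 3.89e-07) and by 1.78 ± 0.10 in erlotinib_24h (adjusted p = 4.43e-11). For ERBB3, which couples the family to PI3K, the levels were 56.9, 58.2 and 57.9 CPM in DTP, 168, 171 and 167 CPM in erlotinib_24h and 27.8, 30.2 and 28.2 CPM in parental_DMSO. The order of the groups was the same, again without overlap. ERBB3 rose by 1.00 ± 0.09 in DTP (adjusted p = 7.73e-08) and by 2.56 ± 0.10, or 5.88-fold, in erlotinib_24h (adjusted p = 3.16e-13). Set directly against 24 hours, DTP was lower in both, with log2 differences of -0.87 ± 0.10 for ERBB2 (adjusted p = 6.82e-07) and -1.55 ± 0.09 for ERBB3 (adjusted p = 3.53e-10). With spike-in scaling the ERBB2 difference was -0.42 and did not pass (adjusted p = 0.0775).

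By gene reads, the changes of the partner receptors outside erlotinib were smaller. Carboplatin_72h held 37.3, 34.1 and 38.5 CPM of ERBB2, a change of -0.14 ± 0.10 that did not pass (adjusted p = 0.222). That sign turned with spike-in scaling, to 0.50 (adjusted p = 0.0341). ERBB3 was at 44.3, 47.1 and 46.0 CPM in carboplatin_72h and rose by 0.67 ± 0.09 (adjusted p = 9.62e-06). With spike-in scaling the ERBB3 change was 1.32 in carboplatin_72h (adjusted p = 5.53e-05) and 1.10 in DTP. In parental_TSA the levels of ERBB2 were 39.1, 47.3 and 51.4 CPM, which overlapped parental_DMSO (0.19 ± 0.10, adjusted p = 0.110), though without parental_TSA a the change was 0.28 and passed (adjusted p = 0.00805). ERBB3 had 32.1, 41.5 and 45.4 CPM in parental_TSA, all above parental_DMSO, and rose by 0.47 ± 0.09 (adjusted p = 3.81e-04; 0.52 and adjusted p = 0.0604 with spike-in scaling). Across all 18 libraries log2 levels of ERBB2 and ERBB3 had a Pearson correlation of 0.910, and ERBB2 and HBEGF one of -0.979; these describe the 6 groups, whose libraries share treatments, and carry no test.

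HBEGF, a ligand that binds EGFR and ERBB4 and attaches to heparan sulphate, had the strongest fall of the tested EGFR ligands after 24 hours of erlotinib. It was at 49.9, 46.3 and 48.1 CPM in DTP, 4.70, 5.86 and 5.37 CPM in erlotinib_24h and 182, 185 and 180.0 CPM in parental_DMSO. Every 24-hour library was below every other library of the study. The change was -5.10 ± 0.08 in erlotinib_24h (adjusted p = 7.43e-18), or 34.4-fold lower, and -1.92 ± 0.07 in DTP (adjusted p = 3.46e-13). Persisters were 3.18 ± 0.07 above 24-hour cells on the log2 scale (adjusted p = 2.80e-15) and below the parental_DMSO level. In carboplatin_72h HBEGF had 235, 239 and 238 CPM, the highest of the 6 groups, and rose by 0.38 ± 0.07 (adjusted p = 1.03e-04), or by 1.03 with spike-in scaling (adjusted p = 1.31e-05).

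AREG, or amphiregulin, and EREG, or epiregulin, are neighbours on chromosome 4 and both were lower at 24 hours and at 8 days of erlotinib. AREG had 1.70, 2.00 and 1.91 CPM in DTP, 1.65, 1.61 and 1.18 CPM in erlotinib_24h and 9.13, 8.71 and 9.87 CPM in parental_DMSO. Both erlotinib groups were below all parental_DMSO libraries and lay next to each other without overlap. AREG changed by -2.30 ± 0.14 in DTP (adjusted p = 2.77e-10) and -2.64 ± 0.14 in erlotinib_24h (adjusted p = 2.75e-11), and the difference between these, 0.33 ± 0.14, did not pass (adjusted p = 0.0598; 0.34 and adjusted p = 0.0176 without parental_TSA a, 0.79 and adjusted p = 5.72e-04 with spike-in scaling). EREG had 4.39, 3.49 and 4.10 CPM in DTP, 12.2, 12.4 and 12.5 CPM in erlotinib_24h and 21.9, 23.3 and 21.1 CPM in parental_DMSO. Here the persisters were the lowest group of the study. EREG changed by -2.47 ± 0.10 in DTP (adjusted p = 1.18e-12), by -0.84 ± 0.09 in erlotinib_24h (adjusted p = 2.94e-07), and by -1.63 ± 0.09 between DTP and erlotinib_24h (adjusted p = 2.24e-10). AREG has a near-identical copy in some genome builds (AREGB), and the build behind the counts is not given in the sources used here.

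TGFA, transforming growth factor alpha, is a ligand of EGFR and was, like HBEGF, lower at 24 hours than at 8 days. TGFA levels were 186, 182 and 186 CPM in DTP, 65.7, 64.9 and 65.5 CPM in erlotinib_24h and 199, 208 and 201 CPM in parental_DMSO. Cells at 24 hours were the lowest group, and DTP lay just under parental_DMSO without overlap. TGFA changed by -1.63 ± 0.07 in erlotinib_24h (adjusted p = 1.01e-12) and stood 1.50 ± 0.07 higher in DTP than in erlotinib_24h (adjusted p = 8.76e-12). Its difference of -0.13 ± 0.07 between DTP and parental_DMSO did not pass (adjusted p = 0.0923), though it did without parental_TSA a (-0.13, adjusted p = 0.00684). BTC, betacellulin, had 3.00, 3.27 and 3.40 CPM in DTP, 2.13, 2.37 and 2.48 CPM in erlotinib_24h and 2.64, 2.48 and 2.03 CPM in parental_DMSO. Erlotinib_24h overlapped parental_DMSO, and neither 0.44 ± 0.24 in DTP (adjusted p = 0.131) nor -0.03 ± 0.24 in erlotinib_24h (adjusted p = 0.912) passed. BTC differed by 0.47 ± 0.24 between DTP and erlotinib_24h, which did not pass (adjusted p = 0.109), and by 0.92 with spike-in scaling, which did (adjusted p = 0.0125).

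NRG1, neuregulin 1, the ligand of ERBB3 in the list, was nearly absent after 24 hours of erlotinib. Its reads came to 47.5, 43.2 and 23.8 in DTP, 2.17, 2.17 and 1.09 in erlotinib_24h and 96.0, 109 and 99.0 in parental_DMSO. In CPM these are 0.571, 0.527 and 0.316 in DTP, 0.0246, 0.0222 and 0.0128 in erlotinib_24h and 1.31, 1.44 and 1.36 in parental_DMSO, with no overlap between the 3 groups. NRG1 changed by -5.99 ± 0.52 in erlotinib_24h (adjusted p = 1.71e-08), a size that depends on those few reads, and by -1.54 ± 0.37 in DTP (adjusted p = 0.00171). DTP was above erlotinib_24h by 4.46 ± 0.53 (adjusted p = 1.63e-06). ERBB3, its receptor, was highest in the group where NRG1 was lowest. EPGN, epigen, was too low to be tested, with 4.32, 3.24 and 1.08 reads in DTP, 2.17, 1.09 and 1.09 reads after 24 hours of erlotinib and 17.3, 9.68 and 7.53 reads in parental_DMSO. Carboplatin_72h held 7.71, 0 and 2.20 reads, DTP_TSA 0, 4.36 and 3.26 and parental_TSA 1.06, 0 and 3.19. All parental_DMSO libraries had more EPGN reads than any DTP or erlotinib_24h library. With no filter on low counts EPGN differed by -3.21 ± 1.04 in erlotinib_24h (adjusted p = 0.0140) and by -2.23 ± 0.97 in DTP, which did not pass (adjusted p = 0.0742). The fall was not limited to erlotinib, with -3.48 ± 1.05 in parental_TSA (adjusted p = 0.0109). In carboplatin_72h the value was -1.89 ± 0.94, which did not pass (adjusted p = 0.122).

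Of the 9 tested genes, 2 rose and 5 fell in DTP, where 58.9% of all 17641 genes tested passed (31.0% higher, 27.8% lower). In erlotinib_24h 2 rose and 6 fell, where 69.3% of all genes passed (36.6% higher, 32.7% lower). The median log2 change of the 9 was -0.91 in DTP and -1.20 in erlotinib_24h, beside 0.06 and 0.11 over all genes. Between DTP and erlotinib_24h 3 were higher and 3 lower, with 55.3% of all genes passing (30.5% higher, 24.8% lower) and medians of 0.33 for the 9 and 0.03 for all genes. Most genes passed in each of these comparisons, and the counts of the 9 are to be read against that. Scaled to spike-ins, 8 of 9 passed in erlotinib_24h and 6 of 9 in DTP, while the all-gene median moved to -0.23 and 0.16 and the calls over all genes to 4665 higher and 7207 lower in erlotinib_24h (6457 and 5776 by gene reads) and to 5631 higher and 3224 lower in DTP (5471 and 4911). Between DTP and erlotinib_24h that scaling moved the all-gene median to 0.48 and the calls to 8502 higher and 2030 lower (5382 and 4377).

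**Figure D2:**
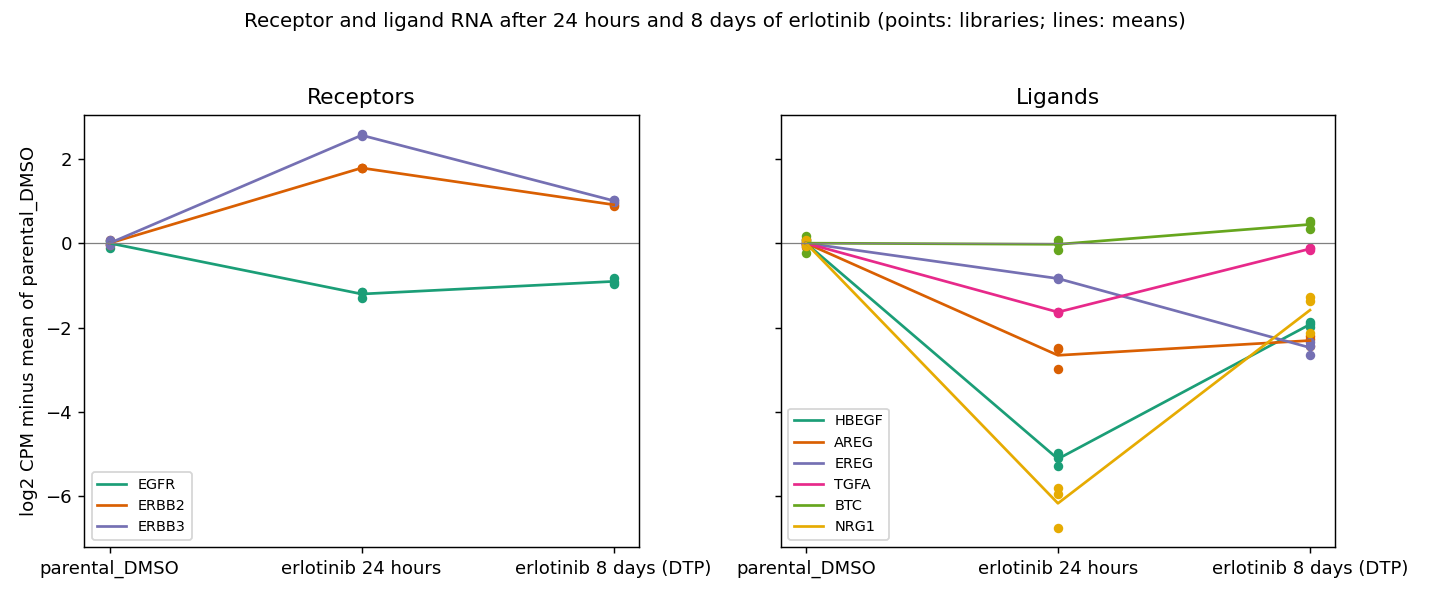
Log2 CPM of each gene relative to its parental_DMSO mean after 24 hours and 8 days of erlotinib (DTP), receptors on the left and ligands on the right; points are libraries and lines join the means of 3. ERBB2 and ERBB3 peak at 24 hours, HBEGF, TGFA and NRG1 are lowest at 24 hours, and EREG is lowest at 8 days.

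**Figure D3:**
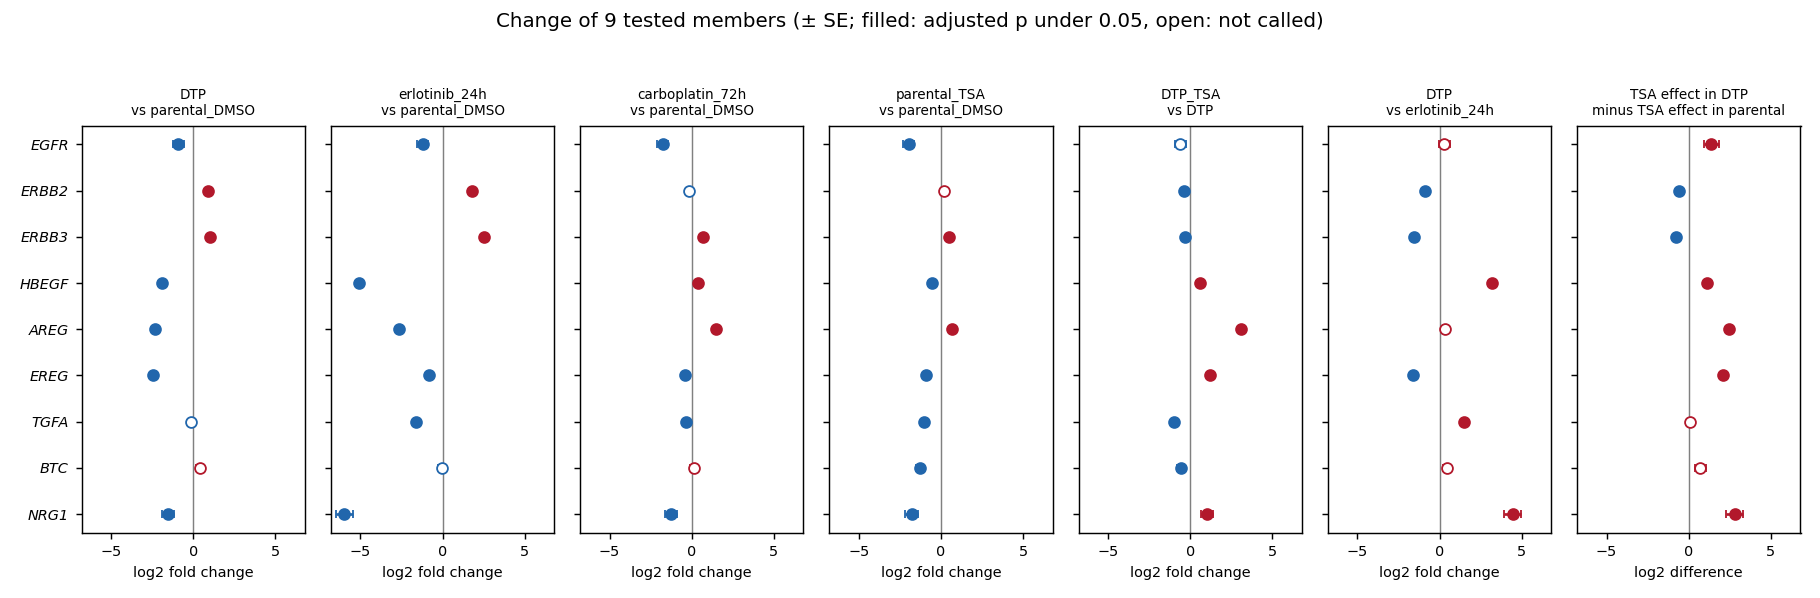
Log2 fold change (± standard error, 3 libraries a group) of the 9 tested genes in 6 comparisons and, at the right, the difference between both TSA effects. Red points are higher and blue points lower in the group named first; filled points have an adjusted p under 0.05. AREG is lower in both erlotinib groups, and higher in carboplatin_72h, parental_TSA and DTP_TSA against its own reference.

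Carboplatin, which damages DNA and does not target EGFR, gave another set of changes. HBEGF (0.38 ± 0.07) and AREG rose, and by gene reads EREG, TGFA and NRG1 fell along with EGFR, of which EREG and TGFA turned to the other sign with spike-in scaling. AREG reached 25.2, 25.3 and 25.2 CPM in carboplatin_72h against 9.13, 8.71 and 9.87 CPM in parental_DMSO. All 3 treated libraries were above every other library of the study, and AREG rose by 1.45 ± 0.13 (adjusted p = 4.23e-08). EREG had 16.9, 17.6 and 15.9 CPM in carboplatin_72h and fell by 0.40 ± 0.09 (adjusted p = 0.00122), while TGFA had 157, 161 and 154 CPM and fell by 0.37 ± 0.07 (adjusted p = 1.55e-04). Both lay below parental_DMSO without overlap by gene reads, while spike-in scaling gave higher values that did not pass (0.26 and adjusted p = 0.242 for EREG, 0.29 and adjusted p = 0.204 for TGFA). NRG1 had 0.724, 0.401 and 0.589 CPM in carboplatin_72h and changed by -1.26 ± 0.36 (adjusted p = 0.00692). With spike-in scaling the change was -0.65 for NRG1 (adjusted p = 0.0284) and -1.12 for EGFR (adjusted p = 0.0255). BTC, at 2.72, 2.87 and 2.33 CPM in carboplatin_72h, overlapped parental_DMSO (0.15 ± 0.24, adjusted p = 0.618), and passed with spike-in scaling (0.80, adjusted p = 0.0247). In all, 3 of the 9 rose and 4 fell, where 58.9% of all genes passed (30.3% higher, 28.6% lower); the median of the 9 was -0.14 and that of all genes 0.06. With spike-in scaling 5 of the 9 rose and 2 fell, the all-gene median was 0.72, and 10618 genes were higher and 1213 lower in place of 5340 and 5046.

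TSA for 5 hours changed the ligands of parental cells in both directions. In parental_TSA AREG had 17.7, 12.9 and 13.1 CPM, all above parental_DMSO, and rose by 0.65 ± 0.13 (adjusted p = 2.88e-04). HBEGF fell to 135, 127 and 119.7 CPM in parental_TSA, a change of -0.52 ± 0.07 (adjusted p = 3.54e-06). EREG, with 10.7, 12.5 and 12.1 CPM in parental_TSA, changed by -0.91 ± 0.09 (adjusted p = 2.33e-07). HBEGF and EREG were below every parental_DMSO library in all libraries of parental_TSA. TGFA had 87.4, 105 and 108 CPM in parental_TSA and changed by -1.02 ± 0.07 (adjusted p = 1.51e-09), and BTC had 0.565, 1.31 and 1.00 CPM and changed by -1.29 ± 0.25 (adjusted p = 2.71e-04). The level of NRG1 was 0.519, 0.273 and 0.402 CPM in parental_TSA, a change of -1.80 ± 0.37 (adjusted p = 5.26e-04). Within its group, parental_TSA a had the highest AREG, HBEGF and NRG1 and the lowest EREG, TGFA and BTC. The size of each of these changes depends in part on that library. In all, 2 of the 9 rose and 6 fell in parental_TSA, where 58.2% of all genes passed (30.8% higher, 27.4% lower). Their median was -0.91, beside 0.06 over all genes.

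In persister cells the same exposure to TSA came with higher levels of ligands that were low in DTP. AREG had 15.6, 16.9 and 15.9 CPM in DTP_TSA a, b and c against 1.70, 2.00 and 1.91 CPM in DTP. All DTP_TSA libraries were above parental_DMSO as well, and AREG rose 8.62-fold over DTP (3.11 ± 0.14, adjusted p = 1.99e-11). EREG had 9.79, 8.90 and 8.73 CPM in DTP_TSA against 4.39, 3.49 and 4.10 CPM in DTP and rose by 1.19 ± 0.09 (adjusted p = 1.62e-08). HBEGF had 68.5, 75.3 and 74.0 CPM in DTP_TSA against 49.9, 46.3 and 48.1 CPM in DTP and rose by 0.59 ± 0.07 (adjusted p = 9.45e-07). EREG and HBEGF, unlike AREG, were below the level of every parental_DMSO library. TGFA fell, to 88.0, 97.6 and 97.9 CPM in DTP_TSA against 186, 182 and 186 CPM in DTP (-0.97 ± 0.07, adjusted p = 2.91e-09). Without DTP_TSA a the changes were 3.12 for AREG, 1.13 for EREG, 0.63 for HBEGF and -0.93 for TGFA, and all 4 passed.

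The remaining genes gave weaker or less stable changes in DTP_TSA. NRG1 had 1.53, 0.679 and 0.678 CPM in DTP_TSA, the high value being that of DTP_TSA a. It rose by 0.99 ± 0.37 over DTP (adjusted p = 0.0306), but by 0.51 without DTP_TSA a, which did not pass (adjusted p = 0.138). The call was also lost without DTP b or DTP c, with no filter, with the groups fitted alone, and with spike-in scaling (0.66, adjusted p = 0.0706). BTC had 2.83, 1.66 and 2.00 CPM in DTP_TSA, below each DTP library, and fell by 0.59 ± 0.24 (adjusted p = 0.0470), a call lost when any of 14 single libraries was left out (adjusted p between 0.0505 and 0.176). Without DTP_TSA a the BTC change was -0.82 and passed (adjusted p = 0.00523), as it did without both TSA libraries a (-0.82, adjusted p = 9.31e-05). EGFR was at 401, 376 and 391 CPM in DTP_TSA, below every DTP library, and its change of -0.61 ± 0.32 did not pass (adjusted p = 0.120), though it did when the 2 groups were fitted alone (-0.53, adjusted p = 1.53e-04) and without parental_TSA a (-0.62, adjusted p = 3.56e-04). ERBB2 had 48.4, 61.9 and 61.6 CPM in DTP_TSA (-0.40 ± 0.10, adjusted p = 0.00176) and ERBB3 50.0, 44.3 and 43.1 CPM (-0.33 ± 0.09, adjusted p = 0.00545). Both fell by gene reads, and neither passed with spike-in scaling (-0.16 and adjusted p = 0.616 for ERBB2, -0.26 and adjusted p = 0.435 for ERBB3). Without DTP_TSA a the changes were -0.31 for ERBB2 and -0.41 for ERBB3, which passed, and -0.64 for EGFR, which did not (adjusted p = 0.162). In all, 4 of the 9 rose and 4 fell in DTP_TSA, where 56.2% of all genes passed (25.6% higher, 30.7% lower). Their median was -0.33, beside -0.08 over all genes. With spike-in scaling 3 rose and 1 fell, the all-gene median was 0.11, and 4446 genes were higher and 2582 lower in place of 4508 and 5407.

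**Figure D4:**
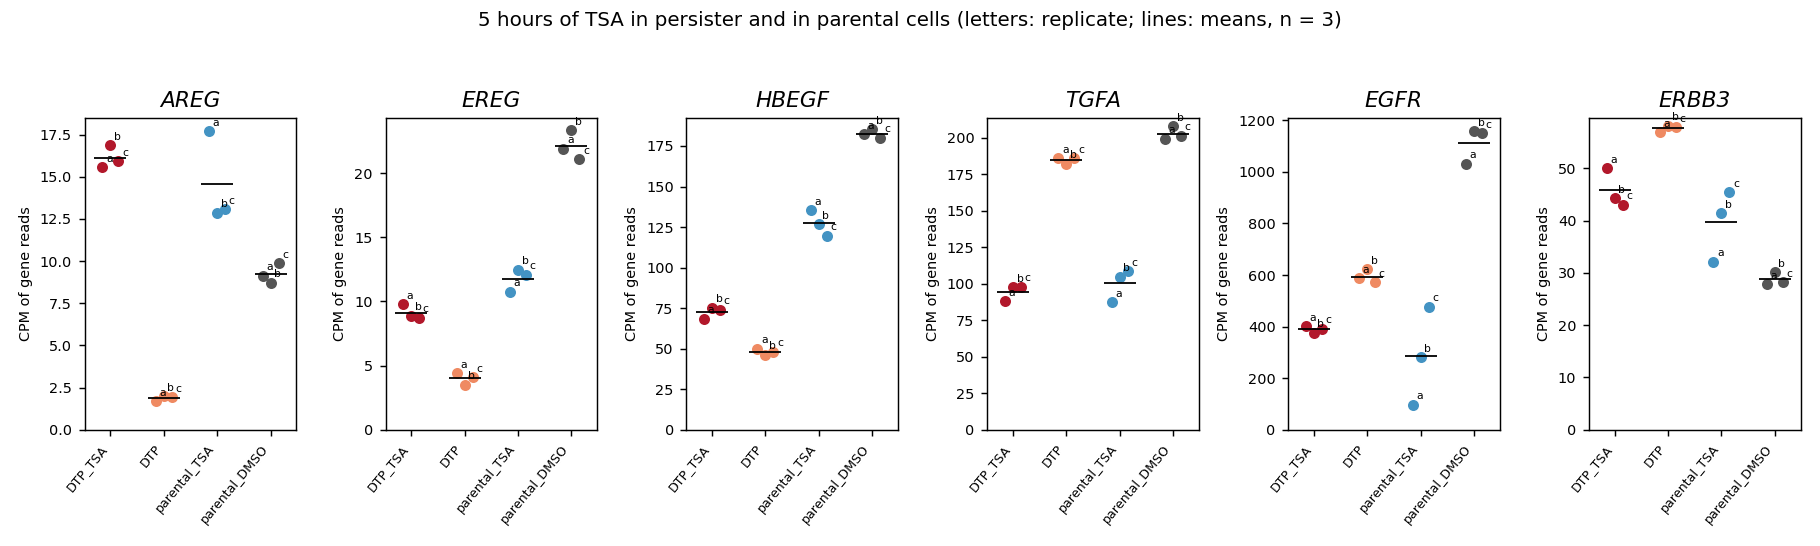
CPM of 6 genes (linear axes from 0) in the 4 groups with or without 5 hours of TSA; points are libraries marked by replicate letter and lines are means of 3. AREG is higher in DTP_TSA than in DTP and parental_DMSO, EREG and HBEGF are higher in DTP_TSA than in DTP and lower than in parental_DMSO, and EGFR spreads widely among the parental_TSA libraries.

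The effect of TSA was then compared between persister and parental cells by the difference of both log2 effects. AREG rose in both, by 3.11 in persister and 0.65 in parental cells, and the difference was 2.46 ± 0.18 (adjusted p = 5.11e-08). EREG and HBEGF rose in persister cells and fell in parental cells, with differences of 2.10 ± 0.13 (adjusted p = 5.66e-09) and 1.12 ± 0.09 (adjusted p = 1.66e-07). NRG1 also differed, by 2.79 ± 0.52 (adjusted p = 5.33e-04; 2.32 and adjusted p = 1.82e-04 without DTP_TSA a), while EGFR differed by 1.36 ± 0.45 (adjusted p = 0.0266). The value for EGFR was 0.94 without parental_TSA a and 1.94 without parental_TSA c, and the call was lost when only the 4 groups were fitted (adjusted p = 0.0717) and with spike-in scaling (adjusted p = 0.162). ERBB2 differed by -0.59 ± 0.14 (adjusted p = 0.00267) and ERBB3 by -0.80 ± 0.13 (adjusted p = 1.63e-04), and neither passed with spike-in scaling (-0.38 and adjusted p = 0.420, -0.77 and adjusted p = 0.123). TGFA fell in both kinds of cells, and its difference of 0.05 ± 0.09 did not pass (adjusted p = 0.710), nor did that of BTC (0.70 ± 0.34, adjusted p = 0.121). Such differences depend on the levels before TSA as well as after. AREG averaged 1.87 CPM in DTP, 9.24 in parental_DMSO, 16.1 in DTP_TSA and 14.5 in parental_TSA, with an overlap of both TSA groups. In the same order EREG averaged 3.99, 22.1, 9.14 and 11.8 CPM. HBEGF averaged 48.1, 183, 72.6 and 127 CPM, and NRG1 0.472, 1.37, 0.964 and 0.398 CPM. What part the levels before TSA have in the differences was not tested. Both persister groups had 8 days of erlotinib and both parental groups had none, so that persister state and exposure to erlotinib cannot be told apart. In all, 5 of the 9 differences were positive and 2 negative, where 38.3% of all genes passed (15.3% positive, 23.0% negative). The median of the 9 was 1.12 and that of all genes -0.11. Scaling to spike-ins left 4 of the 9, all positive, and 2717 of the 6750 differences over all genes, of which 1085 were positive and 1632 negative.

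The members of the family outside the list averaged at most 6.39 CPM in any group, as did BTC, EPGN and NRG1 of the list. EGF averaged 2.42 ± 0.196 CPM in DTP (SD, n = 3), 6.39 ± 0.352 in erlotinib_24h and 1.36 ± 0.0711 in parental_DMSO, and it rose by 0.82 ± 0.23 in DTP (adjusted p = 0.00511) and 2.23 ± 0.23 in erlotinib_24h (adjusted p = 1.75e-07). NRG4, a ligand of ERBB4, rose as well, by 1.01 ± 0.25 in DTP (adjusted p = 0.00237) and 1.63 ± 0.25 in erlotinib_24h (adjusted p = 2.03e-05). NRG2, a ligand of ERBB3 and ERBB4, was below 1 CPM in 4 of the groups and averaged 2.76 ± 0.407 CPM in DTP_TSA, 0.226 ± 0.0621 in DTP, 2.25 ± 0.323 in parental_TSA and 0.517 ± 0.154 in parental_DMSO. It fell by 1.18 ± 0.30 in DTP (adjusted p = 0.00296) and rose by 3.59 ± 0.30 in DTP_TSA (adjusted p = 3.37e-08; 3.48 and adjusted p = 2.16e-08 without DTP_TSA a) and 2.12 ± 0.28 in parental_TSA (adjusted p = 5.91e-06). ERBB4, the remaining receptor, had 25.9 reads over the 3 DTP libraries, 45.6 over those of erlotinib_24h and 3.23 over those of parental_DMSO. These reads are too few for a fold. NRG3 had no read in any group but carboplatin_72h, where there were 2.20. Of these 5 genes 4 were tested, and 3 rose and 1 fell in DTP and in erlotinib_24h, where 58.9% and 69.3% of all genes passed. ERBB4, with its few reads, is 1 of the 3 that rose.

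Beside the family, 3 lists of genes that act on it were examined. The first holds 12 tested genes that shed ligands from the membrane or control that step, among them the metalloproteinase inhibitor TIMP3, which opposes shedding, and the inactive rhomboids RHBDF1 and RHBDF2. Of these 12, 7 were higher and 2 lower in DTP (median log2 change 0.24, beside 0.06 over all genes) and 6 higher and 4 lower in erlotinib_24h (median 0.26, beside 0.11). The shares of all genes that passed were 58.9% in DTP and 69.3% in erlotinib_24h. TIMP3, named after its values were seen, is among those higher, by 0.18 ± 0.04 in DTP (adjusted p = 9.08e-04) and 0.36 ± 0.04 in erlotinib_24h (adjusted p = 5.31e-07). RHBDL2, a membrane protease of the rhomboid family that can cut EGF, averaged 10.7 ± 0.253 CPM in DTP, 29.7 ± 1.33 in erlotinib_24h and 2.42 ± 0.0828 in parental_DMSO, a change of 2.14 ± 0.12 in DTP (adjusted p = 1.16e-10) and 3.61 ± 0.12 in erlotinib_24h (adjusted p = 9.21e-14). RHBDF1, an inactive rhomboid that escorts the protease ADAM17, rose by 1.01 ± 0.09 in DTP (adjusted p = 3.65e-08) and 1.78 ± 0.09 in erlotinib_24h (adjusted p = 1.42e-11). The secreted protease MMP7 averaged 0.897 ± 0.161 CPM in DTP, 13.6 ± 0.443 in erlotinib_24h and 0.268 ± 0.0841 in parental_DMSO and rose by 5.66 ± 0.29 at 24 hours (adjusted p = 1.42e-11). ADAM10, which sheds BTC and EGF, rose by 0.92 ± 0.09 in erlotinib_24h (adjusted p = 4.83e-08). ADAM17, which sheds TGFA, AREG and HBEGF and is named here after its values were seen, differed by -0.15 ± 0.16 in DTP (adjusted p = 0.460) and 0.12 ± 0.16 in erlotinib_24h (adjusted p = 0.545), neither of which passed. ADAM15 fell by 0.65 ± 0.07 in DTP (adjusted p = 8.78e-07). After carboplatin 2 of the 12 were higher and 6 lower, with a median of -0.64, beside 58.9% of all genes that passed and a median of 0.06.

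Of 14 tested genes that restrain the receptors or act on that restraint, 3 were higher and 7 lower in DTP (median -0.23) and 2 higher and 10 lower in erlotinib_24h (median -0.66), where 58.9% and 69.3% of all genes passed. CBLB, a ubiquitin ligase that marks active receptors for breakdown, averaged 87.8 ± 2.38 CPM in DTP, 99.7 ± 1.24 in erlotinib_24h and 14.1 ± 0.152 in parental_DMSO, and rose by 2.64 ± 0.08 in DTP (adjusted p = 2.53e-14) and 2.83 ± 0.08 in erlotinib_24h (adjusted p = 5.02e-15). UBASH3B, which binds CBL proteins and is known to oppose the loss of receptors they bring about, and SH3KBP1, a CBL partner in receptor uptake, fell in DTP, by 0.94 ± 0.07 (adjusted p = 1.91e-09) and 0.66 ± 0.05 (adjusted p = 2.65e-09). In erlotinib_24h they fell by 1.75 ± 0.07 (adjusted p = 3.17e-13) and 1.69 ± 0.05 (adjusted p = 8.95e-15). LRIG1, a membrane protein that promotes the loss of EGFR family receptors, parted between the erlotinib groups, with 24.9 ± 1.08 CPM in DTP, 3.21 ± 0.249 in erlotinib_24h and 5.77 ± 0.0696 in parental_DMSO. LRIG1 rose by 2.11 ± 0.17 in DTP (adjusted p = 1.26e-08) and changed by -0.85 ± 0.17 in erlotinib_24h (adjusted p = 2.99e-04). Its difference between DTP and erlotinib_24h was 2.95 ± 0.18 (adjusted p = 3.11e-10). PTPN1, a phosphatase of EGFR, fell by 0.70 ± 0.05 in erlotinib_24h (adjusted p = 1.25e-09) and differed by -0.01 ± 0.05 in DTP, which did not pass (adjusted p = 0.889). After carboplatin 2 of the 14 were higher and 6 lower, with a median of -0.16, beside 58.9% of all genes that passed and a median of 0.06. The all-gene medians in DTP and erlotinib_24h, 0.06 and 0.11, apply to this list and the next as well.

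Of 12 tested adaptors that carry the signal from the receptors, 5 were higher and 3 lower in DTP (median 0.11) and 7 higher and 4 lower in erlotinib_24h (median 0.39), and after carboplatin 4 were higher and 3 lower (median 0.08). The shares of all genes that passed were 58.9%, 69.3% and 58.9% in these comparisons. GAB1, the docking protein that links EGFR to PI3K, rose by 1.35 ± 0.13 in DTP (adjusted p = 1.58e-07) and 1.46 ± 0.13 in erlotinib_24h (adjusted p = 3.65e-08). SOS2, an exchange factor for RAS, rose by 1.21 ± 0.12 in DTP (adjusted p = 1.29e-07) and 1.70 ± 0.12 in erlotinib_24h (adjusted p = 9.68e-10). PTPN11, the phosphatase SHP2 that the RAS pathway needs, fell by 0.93 ± 0.12 in DTP (adjusted p = 3.73e-06) and 1.26 ± 0.12 in erlotinib_24h (adjusted p = 5.98e-08). STAT3, a transcription factor that EGFR can activate, and EPS8, a substrate of EGFR, rose in both erlotinib groups, STAT3 by 1.49 ± 0.09 and EPS8 by 1.33 ± 0.12 in erlotinib_24h (adjusted p = 1.35e-10 and 2.94e-08).

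**Figure D5:**
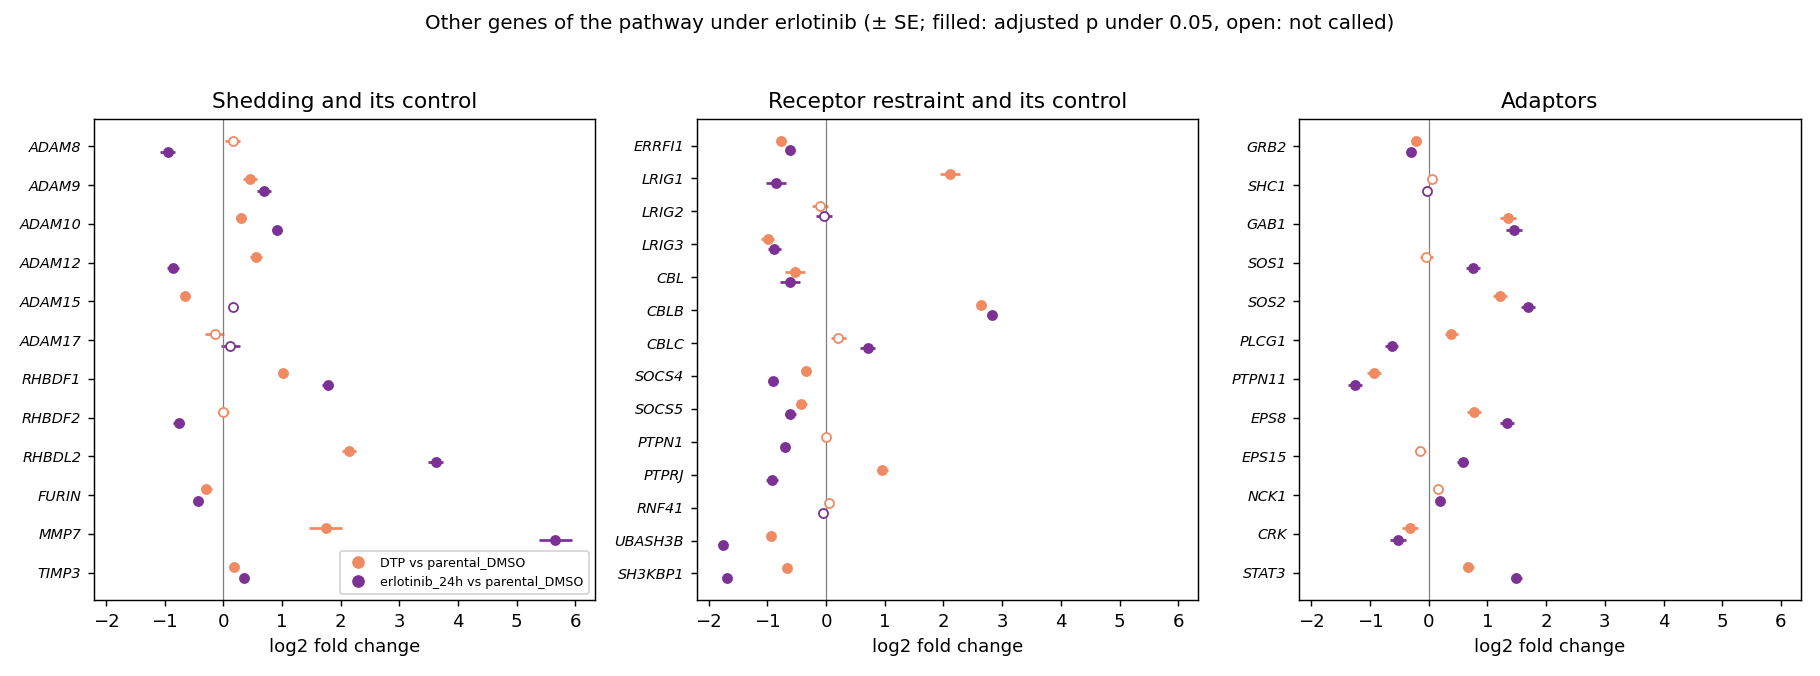
Log2 fold change (± standard error, 3 libraries a group) of genes that shed ligands or control shedding (TIMP3 inhibits it), that restrain the receptors or act on that restraint, or that carry their signal, in DTP (orange) and erlotinib_24h (purple) against parental_DMSO; filled points have an adjusted p under 0.05. CBLB is higher in both groups, LRIG1 is higher in DTP and lower in erlotinib_24h, and MMP7 and RHBDL2 rise most at 24 hours.

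Over all 6 groups each gene had its own order of levels, given here from high to low, where groups are called separate if their 3 libraries did not overlap. EGFR ran from parental_DMSO through DTP, erlotinib_24h, DTP_TSA and carboplatin_72h to parental_TSA. The range of parental_TSA, 96.5 to 478 CPM, overlapped those of carboplatin_72h, DTP_TSA and erlotinib_24h. For ERBB2, erlotinib_24h, DTP and the low end, carboplatin_72h, were separate from their neighbours, while DTP_TSA, parental_TSA and parental_DMSO overlapped in that order. ERBB3 led in erlotinib_24h and DTP, then had the overlapping groups DTP_TSA, carboplatin_72h and parental_TSA, and was lowest in parental_DMSO. HBEGF kept all 6 groups apart, in the order carboplatin_72h, parental_DMSO, parental_TSA, DTP_TSA, DTP and erlotinib_24h. AREG ran carboplatin_72h, DTP_TSA, parental_TSA, parental_DMSO, DTP and erlotinib_24h, with an overlap of both TSA groups. EREG ran parental_DMSO, carboplatin_72h, erlotinib_24h, parental_TSA, DTP_TSA and DTP, where erlotinib_24h and parental_TSA overlapped. TGFA ran parental_DMSO, DTP, carboplatin_72h, parental_TSA, DTP_TSA and erlotinib_24h, again with an overlap of both TSA groups. BTC was highest in DTP and lowest in parental_TSA, and the 4 groups between overlapped. NRG1 was separate in erlotinib_24h alone, since DTP_TSA a reached the range of parental_DMSO. EPGN was highest in parental_DMSO, and its other groups overlapped.

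For each tested gene the genes with the most similar pattern of log2 CPM over the 18 libraries were found among 12823 genes of at least 1 CPM on average. ERBB2 was closest to IFT140 (r = 0.988) and IFT70B (0.984), and ERBB3 to THBS3 (0.981) and C1RL (0.979). HBEGF was closest to HARS1 (0.988). EGFR had a lower best match, ANKRD11 at 0.951, followed by TCF20 at 0.937. For AREG the nearest were CLP1 and PPM1D (both 0.976), and for EREG HK2 (0.933) and SPSB1 (0.927), the lowest best match of the 9. TGFA was closest to IVNS1ABP (0.983) and ZNF239 (0.981), BTC to WASHC2A (0.953) and RASEF (0.952), and NRG1 to NT5DC3 (0.969) and ISM1 (0.963). These values of Pearson's r describe libraries that share 6 treatments and come without a test.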

How the data were processed

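RNA was sequenced in 18 libraries of PC9 cells. The values are estimated counts per gene that the authors deposited, made with Salmon per the submitters' processing notes; no source used here gives its version, the genome build or whether strand was used. They were rounded to whole numbers. Each table has 3 per-sample columns that match no sample, and these were not used, nor were the tables of repeats. Gene symbols were found for 27814 of 30727 identifiers; the rest took 0.247% of gene reads.

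Reads were 32139343 to 128293531 per library. Genes kept by edgeR's filterByExpr (17641) were fitted together in 1 quasi-likelihood model of 6 groups (edgeR 4.0.16, limma 3.58.1, R 4.3.3; TMM scaling, 12 residual degrees of freedom). P-values were adjusted by Benjamini-Hochberg over these genes, with a threshold of 0.05. Standard errors are the log2 change divided by the root of F. On counts simulated for DTP against parental_DMSO with 17034 genes, 97 of 100 changes of log2 1 and 100 of 100 of log2 2 were found, with 12 false calls. That simulation gave all genes 1 common spread and changed 200 genes, while in the data most genes passed. Its error rates therefore need not hold for the data. Spike-in reads gave alternative library sizes. Other alternatives were RLE factors, DESeq2 1.42.0, other filters, a replicate block, fits of only the groups compared, and leaving out libraries.

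The members and lists were chosen with earlier results of these data known. Named genes are the 10 members, the other family genes and, per list, up to 4 genes with the smallest p in DTP and up to 4 in erlotinib_24h. TIMP3 and ADAM17 were added after their values were seen. Likeness is Pearson's r of log2 CPM with a prior count of 2. A further likeness result is not reported here. Plots used Python 3.11.15 and matplotlib 3.10.9.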

Additional observations from a re-analysis of the deposited data

Results flagged for a closer look

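The response to TSA differed between persister and parental cells in 7 of the 9 tested genes, by the test of the difference itself, where 38.3% of all genes tested passed. With spike-in scaling 4 of the 7 passed, namely AREG, EREG, HBEGF and NRG1. The log2 effect in DTP minus that in parental cells was 2.46 ± 0.18 for AREG (higher in 3 of 3 DTP_TSA libraries than in any DTP library), 2.10 ± 0.13 for EREG, 1.12 ± 0.09 for HBEGF and 2.79 ± 0.52 for NRG1. It was 1.36 ± 0.45 for EGFR, -0.59 ± 0.14 for ERBB2 and -0.80 ± 0.13 for ERBB3. Adjusted p-values from edgeR ran from 5.66e-09 for EREG to 0.0266 for EGFR. NRG1 rests in part on DTP_TSA a, the library with the high share of spike-in reads, and EGFR on a group, parental_TSA, whose 3 libraries lay far apart. The part of either in these differences was not tested beyond leaving the libraries out. The levels before TSA differed as well, with AREG at -2.30 and EREG at -2.47 in DTP against parental_DMSO. After TSA, AREG averaged 16.1 CPM in DTP_TSA and 14.5 in parental_TSA, which overlapped, and EREG 9.14 and 11.8 CPM. HBEGF averaged 72.6 and 127 CPM and NRG1 0.964 and 0.398 CPM in these 2 groups. What part the levels before TSA have was not tested. Both persister groups had 8 days of erlotinib and both parental groups had none. The persister state and the exposure to erlotinib therefore cannot be told apart in these differences.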

How the results depend on the processing

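Library sizes from spike-in reads, which leave out DTP_TSA a, moved counts furthest among the alternatives run. They left 4 of the 9 tested genes changed between DTP_TSA and DTP in place of 8, and 4 in the difference between both TSA effects in place of 7; over all genes that difference passed for 2717 in place of 6750. In carboplatin_72h they turned ERBB2 to 0.50, EREG to 0.26 and TGFA to 0.29. All other totals of called genes stayed within 1.5 times, while counts in 1 direction moved further: with spike-in sizes 10618 genes were higher and 1213 lower in carboplatin_72h (5340 and 5046 by gene reads), 8502 higher and 2030 lower between DTP and erlotinib_24h (5382 and 4377), 3224 lower in DTP (4911) and 2582 lower between DTP_TSA and DTP (5407). With DTP and erlotinib_24h fitted alone 6584 were lower. Among values of single genes, 1555 kept direction and call, 31 gained and 45 lost the call, and 7 changed sign. BTC in erlotinib_24h was 0.049 with the filter of 1 CPM in 3 libraries and ran from -0.14 to 0.043 as libraries were left out. TGFA in the TSA difference ran from -0.042 to 0.11. In each of these 2 the main value had not passed, and the cause was not tested.

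Same-letter libraries showed no common deviation from their group means (correlations from -0.053 to 0.103, 1 of 45 pairs over 0.1, 7 of 18 libraries closest to their own letter). With means of only 3 libraries this check cannot exclude that a letter marks a shared culture or day. With a replicate block, 7 of the 9 changed in DTP, 8 in erlotinib_24h, 7 in carboplatin_72h, 8 in parental_TSA, 7 in DTP_TSA against DTP (BTC not passing, -0.59, adjusted p = 0.0657), 6 between DTP and erlotinib_24h and 7 in the TSA difference. The shares of all genes passing with the block were, in the same order, 58.4%, 68.9%, 58.2%, 57.5%, 55.3%, 54.7% and 37.6%. The block changed no other call of these genes. Depth limits EPGN, NRG1 and ERBB4, which have few reads.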
